A study of Rattus norvegicus with 24 samples.

Results

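The genes of prostaglandin synthesis, reception and breakdown were examined in the renal medulla and cortex of rats given lithium for 6 months. The set held 10 genes of the 14324 that the array's annotation names: Pla2g4a, Ptgs1, Ptgs2, Ptges, Ptgds, Ptger1, Ptger2, Ptger3, Ptger4 and Hpgd. They were chosen by symbol, as genes of this pathway, with earlier results of these data known. Each was read from the transcript cluster whose annotation gives that symbol alone. Ptger2 lay on 2 clusters that carried the same values on every array.

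Male Wistar rats were divided into 6 lithium-treated and 6 control animals. Lithium was mixed into the food at 40 mmol/kg for 7 days and at 60 mmol/kg from then until 6 months, with a salt block in the cage. The control animals ate standard rodent food for the same 6 months, and the age of the animals is stated neither in the labels nor in the methods. Pieces of medulla and cortex were cut from the partly thawed kidneys of every animal, and each piece was hybridised to an array of its own, which gave 24 arrays in 4 groups of 6. Such pieces are bulk tissue, so fewer cells of a type and less RNA in each cell cannot be told apart.

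Prostaglandins are made when phospholipase A2 frees arachidonate from membranes, a cyclooxygenase turns it into prostaglandin H2, and a terminal synthase turns that into prostaglandin E2 or another product. Prostaglandin E2 acts on 4 receptors, EP1 to EP4, which are coupled to different G proteins, and is inactivated by 15-hydroxyprostaglandin dehydrogenase. The renal medulla is a major site of its synthesis, in collecting ducts and interstitial cells, where it opposes vasopressin in the collecting duct and salt uptake in the thick ascending limb.

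Values are log2 signal intensities from which the authors had removed the effect of scan date. The arrays had medians of 6.12 to 6.22 in medulla and 5.75 to 5.83 in cortex, so the tissues appear to have been normalized apart, and a level of one tissue set beside a level of the other carries that offset. Neither is the level of one gene comparable with that of another, since their probes differ. Genes were tested in a tissue when they reached a log2 signal of 6 on at least 4 of its 12 arrays, and genes under that limit were not shown to be above background. The array of lithium-treated cortex from animal 17 held, for every cluster, the mean of the other 5 within 8e-05 log2 units, so lithium-treated cortex is described by 5 arrays. Proximal tubule markers averaged 7.33 to 9.16 in medulla arrays and 10.58 to 11.2 in cortex arrays. In medulla, 190 of 16025 tested clusters (1.19%) differed between lithium-treated and control rats at an adjusted p below 0.05. In cortex, 79 of 13766 (0.574%) did.

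In the medulla of lithium-treated rats, Ptgs2, the inducible cyclooxygenase, fell 1.92-fold and was the only one of the 8 tested genes of the set that passed the test. Of the others, none of which passed, Pla2g4a, Ptgs1, Ptgds, Ptger1 and Ptger3 had lower means and Ptges and Ptger4 higher means in lithium-treated rats. In the cortex 6 of the 10 genes could be tested and none passed, although Ptgs1 was higher in 4 of 5 lithium-treated arrays than in every control array. The changes with lithium in both tissues are shown with their standard errors in the plot of log2 changes.

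**Figure D1:**
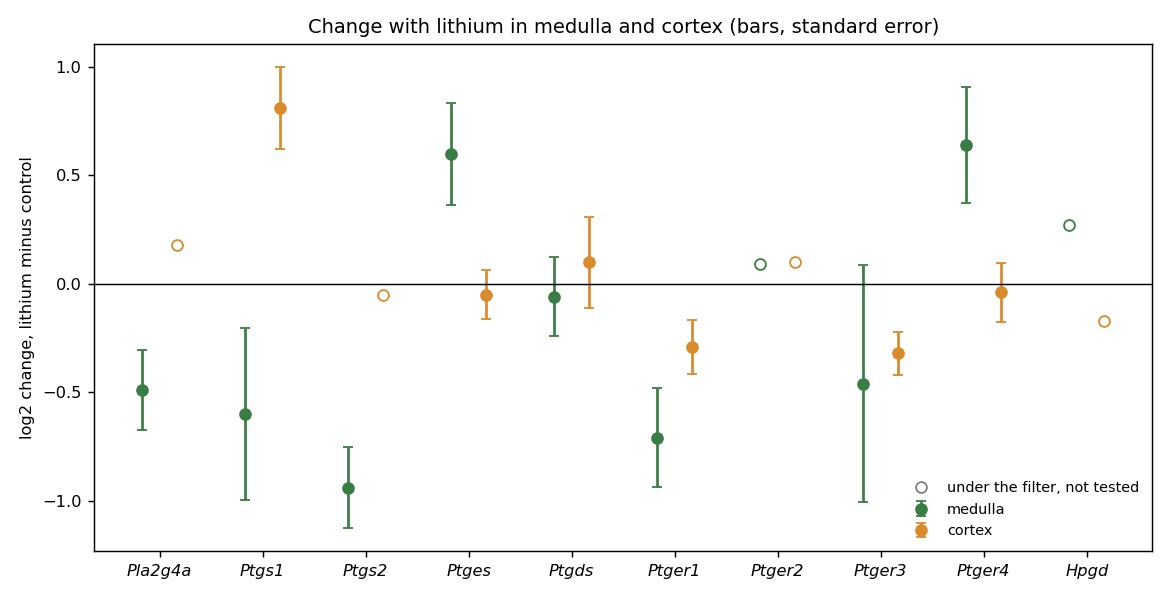
Log2 change (lithium minus control) of the 10 prostaglandin genes in medulla (green) and cortex (orange). Bars are standard errors of the limma fit with scan group; open circles are genes under the limit of 6, for which only the difference of means is given. Ptgs2 in medulla, at -0.94, lies farthest below 0, and Ptgs1 in cortex, at 0.81, farthest above.

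The release step was represented by Pla2g4a, the cytosolic phospholipase A2 that frees arachidonate. In medulla its signal had a lowest value of 7.2, a median of 7.99 and a highest value of 8.06 in lithium-treated rats, against 8.0, 8.23 and 8.75 in control rats. Of the lithium-treated arrays 5 lay below every control array, and the highest, from animal 22, passed the 2 lowest control arrays. The change was -0.49 (SE 0.185), with an adjusted p of 0.179 by limma. It was -0.86, -0.59 and 0.00 within the 3 scan groups of the medulla, so the scan group of animals 21, 22, 29 and 30 showed no difference. In cortex the signal was near the limit in both groups, at 6.07, 5.59, 6.41, 5.63 and 5.83 in lithium-treated rats 6, 18, 19, 21 and 22, against 5.3 to 5.98 in control rats. The groups overlapped there and the gene was not tested.

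The cyclooxygenases are Ptgs1, expressed steadily in most tissues, and Ptgs2, which is induced by many stimuli and, in the kidney, is also present without them in the macula densa and in medullary interstitial cells. The 250 bases before the start of each gene are shown because these isoforms, which catalyse the same reaction, are the members with the largest changes, one in each tissue. Both sequences are the RefSeq sequences of build GRCr8, on the plus strand, at chr3:39981169-39981418 for Ptgs1 and chr13:64713813-64714062 for Ptgs2. Capitals mark matches to 4 motifs that were searched on both strands. These were the TATA box in the form TATAAA or, as a variant found in some promoters, TTTAAA. The others were the E-box, a site for helix-loop-helix factors, in the form CACGTG, and the GC box, a site for Sp factors, in the form GGGCGG. In the windows shown, no match overlapped another.
Ptgs1: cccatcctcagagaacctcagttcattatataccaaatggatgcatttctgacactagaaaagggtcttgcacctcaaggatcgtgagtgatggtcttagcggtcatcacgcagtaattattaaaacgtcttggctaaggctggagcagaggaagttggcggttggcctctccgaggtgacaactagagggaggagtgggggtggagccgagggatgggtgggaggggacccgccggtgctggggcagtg
Ptgs2: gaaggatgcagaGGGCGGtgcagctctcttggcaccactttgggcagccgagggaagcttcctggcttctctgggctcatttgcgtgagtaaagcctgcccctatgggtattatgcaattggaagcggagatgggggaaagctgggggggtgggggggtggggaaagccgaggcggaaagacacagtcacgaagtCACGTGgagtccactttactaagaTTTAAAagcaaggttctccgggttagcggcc
In Ptgs2, TTTAAA began 31 bases before the start, CACGTG 55 bases before it and GGGCGG 238 bases before it. None of the 4 motifs was found in the window of Ptgs1. Among all 33469 promoter windows of this length, TATAAA was present in 12.9%, TTTAAA in 12.3%, CACGTG in 5.6% and GGGCGG in 30.5%. Among the 10 prostaglandin genes, all of which were matched, these numbers were 1 for TATAAA, 2 for TTTAAA, 1 for CACGTG and 6 for GGGCGG. G and C made up 54.4% of the bases in Ptgs1 and 57.2% in Ptgs2.

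In medulla, Ptgs2 ranged from 6.51 to 7.52 with a median of 7.0 in lithium-treated rats, against 7.55 to 8.31 with a median of 7.86 in control rats. Every lithium-treated array lay below every control array, though the gap was narrow, between 7.52 in lithium-treated animal 18 and 7.55 in control animal 16. Of all tested clusters in medulla, 1.6% were lower in this way without overlap. The means were 7.0 ± 0.335 and 7.95 ± 0.307 in lithium-treated and control rats (SD, n = 6 each), a change of -0.94 (SE 0.186, adjusted p = 0.0395 by limma). Clusters that passed this test with a lower signal made up 0.356% of all tested. The change was -0.78, -0.91 and -1.13 in the 3 scan groups, each of which held 2 lithium-treated and 2 control arrays.

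The call for Ptgs2 was close to its threshold. Leaving out 1 array at a time kept the change between -1.07 and -0.82, but the adjusted p was 0.0661 to 0.112 without lithium-treated animal 17, 19, 21 or 22 or control animal 1, 13, 15 or 30. It stayed between 0.0239 and 0.046 without any one of the other 4 animals. Without the limit on low signals the adjusted p was 0.0503, and without scan group in the fit it was 0.00942.

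Markers of several other cell types were higher or lower in mean in the same medulla arrays. The largest such difference was that of intercalated cells, whose 6 markers averaged 8.86 to 9.6 in lithium-treated rats, against 6.17 to 8.7 in control rats, without overlap, and of the 5 tested only Slc4a9 passed. The 9 proximal tubule markers averaged 7.33 to 8.29 in lithium-treated rats, against 7.9 to 9.16 in control rats, all 9 with lower means and none passing. Endothelial markers averaged 8.48 to 8.99 in lithium-treated rats, against 8.85 to 9.64 in control rats, and 1 of 4 passed. Markers of fibroblasts, pericytes and interstitial cells, which include the cells known to carry Ptgs2, averaged 7.33 to 8.14 in lithium-treated rats, against 7.4 to 8.17 in control rats. None of the 6 tested genes of that list passed. Their changes ran from -0.41 for Pdgfrb to 0.57 for Col1a1, 5 of them positive and 1 negative. Macrophage markers averaged 7.03 to 7.49 in lithium-treated rats, against 5.83 to 7.06 in control rats, and 3 of the 7 tested were higher: Cd68 by 1.06 (adjusted p = 0.0411), Mrc1 by 1.00 (adjusted p = 0.0376) and C1qa by 0.95 (adjusted p = 0.0454). Markers of the thick ascending limb and macula densa averaged 6.19 to 9.98 in lithium-treated rats, against 7.5 to 10.59 in control rats. All 5 had lower means, with changes from -1.54 to -0.25, and none passed. The 5 thin limb and papilla markers averaged 7.79 to 8.37, against 7.91 to 8.78 in control rats, with none of 4 tested passing. Podocyte and mesangium markers averaged 6.75 to 6.95, against 7.04 to 7.33, without overlap, and 1 of 2 tested passed. Of those 3 markers, 2 had means under 6. Principal cell markers averaged 9.0 to 10.09, against 9.17 to 10.19, with none of 7 passing. Distal convoluted tubule markers averaged 5.19 to 5.67, against 5.64 to 5.99, and the 1 tested did not pass. Of those 3 markers, 2 had means under 6. The part of all these cell types in the result for Ptgs2 was not tested. A fit with the mean of Slc12a1 and Umod, markers of the thick ascending limb, as a covariate was added after the data were seen. In it the change of Ptgs2 was -1.09 (adjusted p = 0.00627 by limma), and 3.18% of all clusters passed. Slc12a1 and Umod had changes of -1.34 and -1.54 in medulla, neither passing, so the covariate itself differed in mean between the diets.

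In cortex, Ptgs2 was under the limit, at 5.6, 5.34, 5.77, 5.83 and 6.08 in lithium-treated rats 6, 18, 19, 21 and 22, against 5.54 to 6.1 in control rats. The groups overlapped over nearly their whole range. The difference between medulla and cortex was therefore not tested at the limit of 6. Without a limit it was -0.89 (medulla change minus cortex change, adjusted p = 0.253), and with a limit of 5 it was -0.89 as well (adjusted p = 0.223). A change particular to the medulla was thus not shown.

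Ptgs1 gave signals in the cortex of 6.05, 6.65, 7.11, 6.57 and 6.75 in lithium-treated rats 6, 18, 19, 21 and 22. The control rats gave 5.51 to 6.17 with a median of 5.79. The array of lithium-treated animal 6 lay inside the control range and the other 4 above it. The means were 6.63 ± 0.382 (SD, n = 5) in lithium-treated rats and 5.82 ± 0.274 (SD, n = 6) in control rats. The change was 0.81 (SE 0.19), with an adjusted p of 0.138 by limma with scan group in the fit.

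This result depended on the model and on animal 6. Without scan group the adjusted p for Ptgs1 was 0.0152, in a fit that counts the averaged array of animal 17 as a sixth, and 2.09% of all clusters passed. Without animal 6 the change was 1.1 and the adjusted p 0.00883 with scan group kept. Within the scan group of animals 1, 6 and 13 the change was -0.06, against 1.32 and 0.87 in the other 2 scan groups that held both diets. The highest array, from animal 19, also had the highest mean of fibroblast, pericyte and interstitial markers (8.45, against 6.52 to 7.09 in the other lithium-treated arrays) and of macrophage markers (7.57, against 6.05 to 6.45). Without that animal the change was 0.67 (adjusted p = 0.181). In the same cortex arrays the principal cell markers averaged 7.3 to 7.87 in lithium-treated rats, against 8.02 to 8.69 in control rats, and 4 of 7 were lower, with changes of -1.46 for Aqp2, -1.44 for Scnn1g, -0.90 for Hsd11b2 and -0.87 for Scnn1b (adjusted p of 0.00391, 0.019, 0.0114 and 0.0443 in that order). The 3 distal convoluted tubule markers averaged 7.09 to 7.96 in lithium-treated rats, against 8.02 to 8.62 in control rats, without overlap. None of the 2 tested passed, and 1 of the 3 had a mean under 6. The part of these cell types in the value of Ptgs1 was not tested.

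In medulla, Ptgs1 ranged from 8.91 to 9.65 with a median of 9.11 in lithium-treated rats, against 8.51 to 11.1 with a median of 9.91 in control rats. The lithium-treated arrays lay within the control range, which spanned 2.59 log2 units, against 0.74 in lithium-treated rats. The change was -0.60 (SE 0.398, adjusted p = 0.423). It rested on single arrays, being -0.27 without control animal 30 and -0.92 without control animal 29, and in neither case did it pass (adjusted p of 0.651 and 0.155). The medulla change minus the cortex change of Ptgs1 was -1.41 (SE 0.489, adjusted p = 0.287) by limma over 13403 clusters, of which 0.0821% passed. With the animal as a replicate block it was -1.53 (adjusted p = 0.301), and the number of clusters that passed was 3 in place of 11. The changes of Ptgs1 thus had opposite signs in the tissues without a difference that passed the test.

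**Figure D2:**
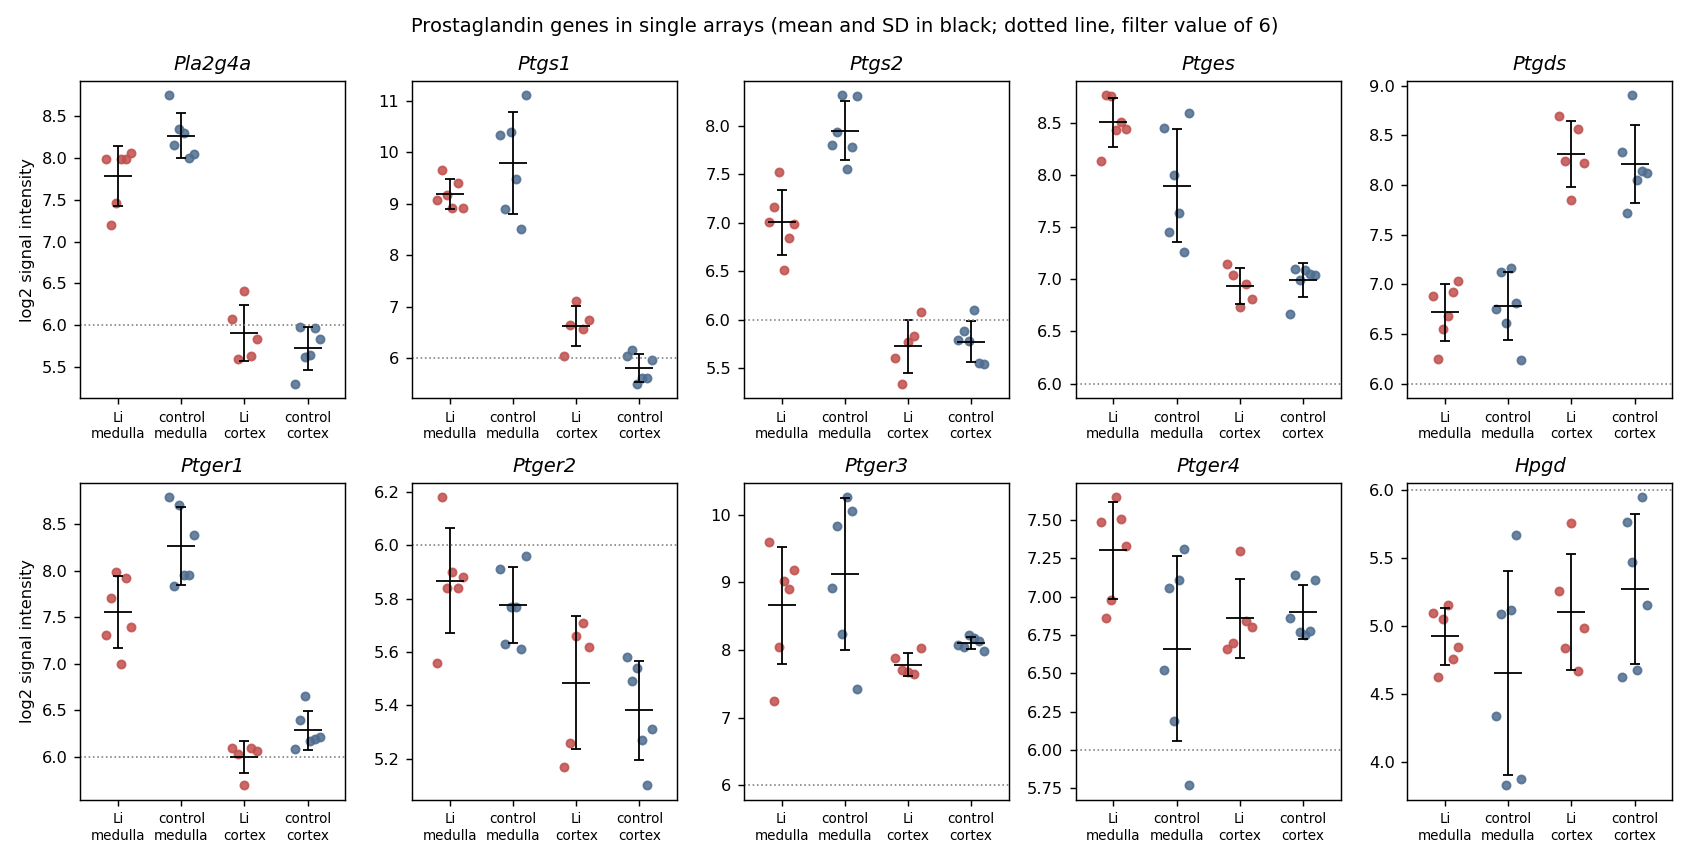
Log2 signal intensity of the 10 genes on each array of medulla and cortex, lithium-treated rats in red and control rats in blue, with mean and SD in black. The dotted line is the limit of 6, and the averaged cortex array of animal 17 is left out. Ptgs2 separates the medulla groups, while its cortex arrays and those of Pla2g4a lie near or below 6.

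Of the terminal synthases, Ptges, the inducible microsomal prostaglandin E synthase that often works beside Ptgs2, ranged in medulla from 8.13 to 8.76 with a median of 8.48 in lithium-treated rats. The control rats ranged from 7.26 to 8.59 with a median of 7.82. The ranges overlapped, with 2 lithium-treated arrays, those of animals 17 and 18, above every control array. The change was 0.60 (SE 0.235, adjusted p = 0.187), and it was 0.49 to 0.77 in the 3 scan groups. Its sign was opposite to that of Ptgs2, but it did not pass the test.

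In cortex, Ptges gave 7.15, 7.04, 6.73, 6.95 and 6.81 in lithium-treated rats 6, 18, 19, 21 and 22, against 6.67 to 7.1 in control rats. The groups overlapped, with a change of -0.05 (adjusted p = 0.937). Ptgds, the lipocalin-type synthase of prostaglandin D2, ranged in medulla from 6.25 to 7.03 in lithium-treated rats and from 6.24 to 7.16 in control rats. Its change there was -0.06 (SE 0.183, adjusted p = 0.88). In cortex Ptgds gave 8.69, 8.24, 7.85, 8.56 and 8.22 in lithium-treated rats 6, 18, 19, 21 and 22, against 7.72 to 8.9 in control rats. Neither tissue separated the groups, and the change of 0.10 in cortex had an SE of 0.21 (adjusted p = 0.936).

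Among the receptors of prostaglandin E2, Ptger1 encodes EP1, which raises cell calcium. In medulla it ranged from 7.0 to 7.99 with a median of 7.55 in lithium-treated rats, against 7.83 to 8.79 with a median of 8.16 in control rats. The arrays of lithium-treated animals 6, 17, 19 and 22 lay below every control array and those of animals 18 and 21 inside the control range. The change was -0.71 (SE 0.227, adjusted p = 0.131). It was -0.83 to -0.51 in the 3 scan groups. In cortex, Ptger1 gave 6.09, 6.03, 5.69, 6.09 and 6.06 in lithium-treated rats 6, 18, 19, 21 and 22, against 6.08 to 6.65 in control rats. These values lie close to the limit of 6, where 3 lithium-treated arrays were below every control array, and the change was -0.29 (SE 0.125, adjusted p = 0.627).

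Ptger3 encodes EP3, the receptor that lowers cAMP and is known from the thick ascending limb and collecting duct. In cortex it gave 7.88, 7.7, 7.68, 7.64 and 8.03 in lithium-treated rats 6, 18, 19, 21 and 22. The control rats ranged from 7.99 to 8.22 with a median of 8.1. All lithium-treated arrays except that of animal 22 lay below every control array. The change was -0.32 (SE 0.0993), with an adjusted p of 0.383 with scan group in the fit. Without scan group, again counting the averaged array of animal 17, the adjusted p for Ptger3 was 0.0424. The change had the same sign in the 3 scan groups with both diets, from -0.51 to -0.17.

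In medulla, Ptger3 had the widest spread of the 10 genes, from 7.24 to 9.59 with a median of 8.96 in lithium-treated rats, against 7.43 to 10.26 with a median of 9.37 in control rats. The groups overlapped, with a change of -0.46 (SE 0.545, adjusted p = 0.665). Its size moved with single arrays, to -0.10 without lithium-treated animal 17 and to -0.88 without control animal 30 (adjusted p of 0.942 and 0.309). This change turned to 0.15 with the mean of Slc12a1 and Umod as a covariate (adjusted p = 0.744).

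Ptger4 encodes EP4, a receptor that raises cAMP. In medulla it ranged from 6.86 to 7.65 with a median of 7.41 in lithium-treated rats, against 5.77 to 7.31 with a median of 6.79 in control rats. The arrays of lithium-treated animals 6, 19, 21 and 22 lay above every control array, although the control range reached into the lithium-treated one. The change was 0.64 (SE 0.268, adjusted p = 0.214), and 0.38 to 0.88 in the 3 scan groups. With the mean of Slc12a1 and Umod as a covariate, the change of Ptger4 was 0.90 and passed (adjusted p = 0.0238), in a fit where 3.18% of all clusters passed. In cortex, Ptger4 gave 6.66, 6.7, 7.3, 6.84 and 6.8 in lithium-treated rats 6, 18, 19, 21 and 22, against 6.75 to 7.14 in control rats. The groups overlapped, and the change was -0.04 (adjusted p = 0.963).

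The remaining genes were under the limit in both tissues. Ptger2, which encodes the other receptor that raises cAMP, EP2, ranged in medulla from 5.56 to 6.18 in lithium-treated rats and from 5.61 to 5.96 in control rats. In cortex it ranged from 5.17 to 5.71 in lithium-treated rats and from 5.1 to 5.58 in control rats. Hpgd, the dehydrogenase that inactivates prostaglandins, ranged in medulla from 4.63 to 5.16 in lithium-treated rats and from 3.83 to 5.67 in control rats. In cortex it ranged from 4.67 to 5.76 in lithium-treated rats and from 4.63 to 5.95 in control rats. The groups overlapped in each case, and no test was made.

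Over the set in medulla, the median change of the 8 tested genes was -0.47, beside -0.00861 over all tested clusters. An unadjusted p below 0.05 was reached by 5 of the 8, beside 19.6% of all clusters tested by limma. In cortex the median change of the 6 tested genes was -0.05, beside 0.0104 over all clusters, and 3 of the 6 reached that unadjusted p, beside 7.54% of all. Since the genes were chosen with earlier results of these data known, these counts only describe the set. Of the 6 genes tested in both tissues, none passed the test of the medulla change minus the cortex change. After Ptgs1, the largest such differences were 0.68 for Ptger4 (adjusted p = 0.4) and 0.66 for Ptges (adjusted p = 0.363).

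Within the medulla, several genes ordered the control arrays alike, and fewer did so among the lithium-treated arrays. Control animals 1, 15 and 30 had the 3 highest signals of Ptgs1, Ptges, Ptger1 and Ptger2 and the 3 lowest of Ptgds, Ptger3, Ptger4 and Hpgd, 4 and 4 of the 10 genes, of which Ptger2 and Hpgd were under the limit. The same 3 control arrays were the lowest for Slc12a1 and Umod, a salt transporter and a secreted protein of the thick ascending limb, and the highest for Slc14a2, a urea transporter of the inner medulla. The authors' correction makes deviations sum to 0 over the 2 lithium-treated and 2 control arrays of each scan group together. Control animals 1, 15 and 30 each came from a different scan group, as did lithium-treated animals 17, 18 and 21. The part of the correction in these orders was not tested. In lithium-treated rats, animals 17, 18 and 21 were highest for Ptgs1, Ptges, Ptger1 and Slc14a2 and lowest for Ptger3, Slc12a1 and Umod. The other 6 of the 10 genes divided the lithium-treated arrays differently. Both sets of 3 animals were picked from these same values. The share of all clusters that divide the arrays in this way was not counted, so these numbers only describe the set.

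Slc12a1 gave 11.81, 4.83, 7.38, 11.03, 10.36 and 10.6 in the medulla of lithium-treated rats 6, 17, 18, 19, 21 and 22. It gave 11.38, 11.99, 9.01, 12.6, 11.74 and 7.32 in control rats 1, 13, 15, 16, 29 and 30. The marker thus spanned 6.98 log2 units in lithium-treated and 5.28 in control medulla, and its change of -1.34 did not pass the test (SE 1.28, adjusted p = 0.588). Ptger3 was lowest on the arrays where Slc12a1 was lowest, those of lithium-treated animals 17 and 18 and control animals 15 and 30. Ptgs2 did not share this order, and all of those arrays were among its 3 highest within their diet. Its 3 highest control arrays were those of animals 13, 15 and 30, and its 3 highest lithium-treated arrays those of animals 6, 17 and 18. Animals 13 and 6, also in these sets, had high Slc12a1, at 11.99 and 11.81. What part the share of each medulla piece taken by the thick ascending limb had in these values was not tested.

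**Figure D3:**
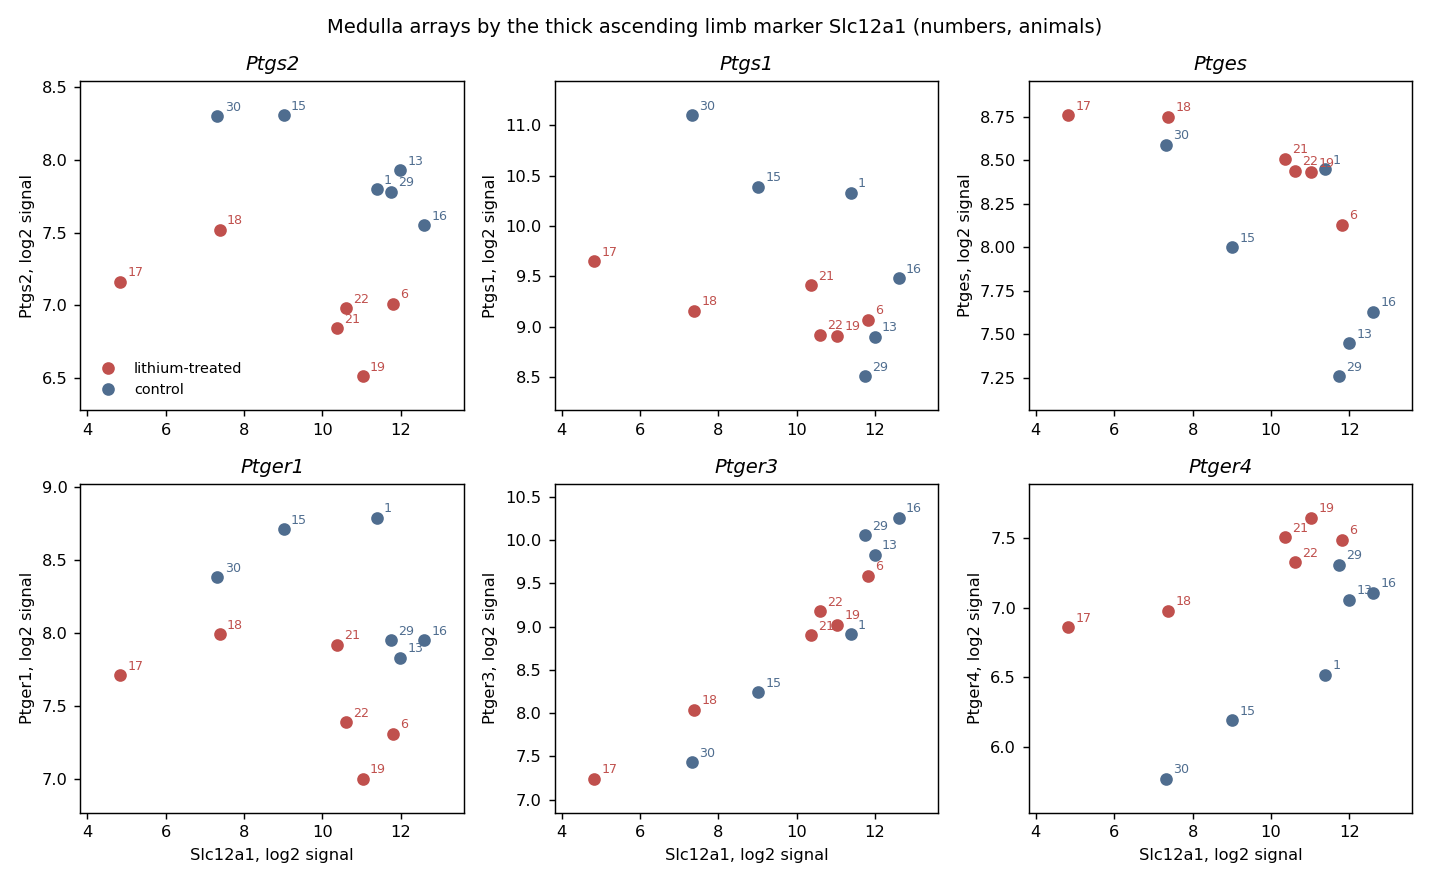
Log2 signal of 6 prostaglandin genes (vertical axes) in the 12 medulla arrays against that of Slc12a1, a marker of the thick ascending limb (horizontal axes), lithium-treated rats in red and control rats in blue, numbered by animal. Ptger3 is low where Slc12a1 is low, from 7.24 in lithium-treated animal 17, whereas for Ptgs2 every red point lies below every blue one.

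The other genes of arachidonate metabolism were read from lists chosen for their function, and none of them passed the test in either tissue with scan group in the fit. Of 11 tested genes for other prostanoid synthases and prostaglandin metabolism in medulla, 9 had negative and 2 positive changes (median -0.18). In cortex the median over 10 was -0.03. The largest changes were those of Akr1b1, aldose reductase, with -0.99 in medulla (SE 0.356, adjusted p = 0.161), and of Ptgr1, a prostaglandin reductase, with -0.59 in medulla (adjusted p = 0.333). Akr1b1 ranged from 10.36 to 11.4 in lithium-treated and from 10.9 to 12.79 in control medulla, so the groups overlapped.

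Of the receptors for other prostanoids, 3 were tested in medulla (median 0.23) and 2 in cortex (median 0.11). Ptgfrn, a partner protein of the prostaglandin F receptor, differed by 0.24 in medulla (adjusted p = 0.223), and Tbxa2r, the thromboxane receptor, by 0.23 (adjusted p = 0.247), neither past the test. Of the other phospholipases and related genes, not all of which release arachidonate, 12 were tested in medulla (median 0.08) and 9 in cortex (median -0.04). Pla2g7, the hydrolase of platelet-activating factor, had the largest difference in medulla, -1.15 (SE 0.322, adjusted p = 0.0997), and Mgll, monoacylglycerol lipase, -0.59 (adjusted p = 0.18).

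In the lipoxygenase and cytochrome P450 branches, which turn arachidonate into other products, 12 genes were tested in medulla (median -0.17) and 10 in cortex (median 0.09). Alox15b, an arachidonate lipoxygenase, ranged in cortex from 5.78 to 7.38 in lithium-treated rats, against 4.58 to 5.57 in control rats. All 5 lithium-treated arrays lay above every control array, which 1.85% of tested cortex clusters did. The difference of 1.40 (SE 0.274) had an adjusted p of 0.0506 with scan group and 0.0046 without, again counting the averaged array of animal 17. Cyp4a3, a fatty acid hydroxylase, differed by -1.0 in medulla (adjusted p = 0.344). The list of G proteins and adenylyl cyclases to which these receptors couple also held Prkaca, Prkacb and Creb1, which are neither. Of its genes, 12 were tested in medulla (median -0.05) and 11 in cortex (median 0.06), while Gnas was under the limit in both. The adenylyl cyclase genes Adcy3 and Adcy5 differed by -0.51 and 0.37 in medulla (adjusted p of 0.294 and 0.298).

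**Figure D4:**
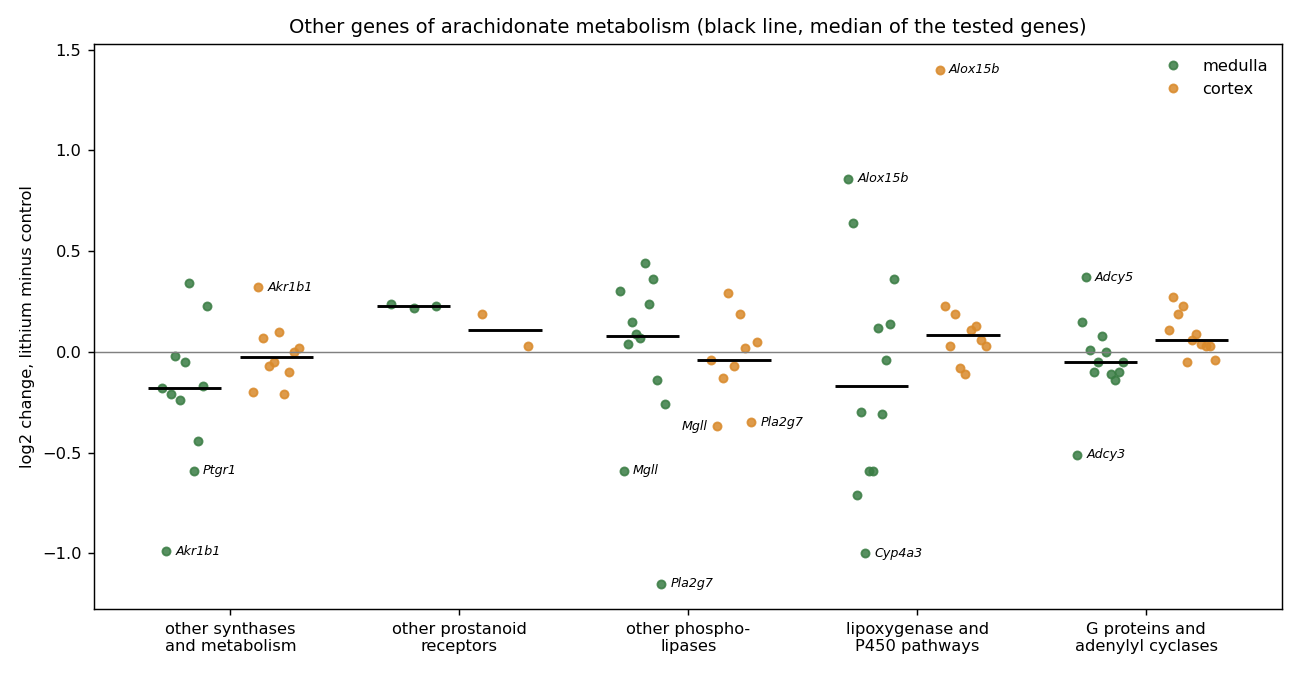
Log2 change (lithium minus control) of the tested genes of 5 other lists of arachidonate metabolism and receptor coupling, in medulla (green) and cortex (orange), 1 point per gene, with the list median as a black line. The medians lie between -0.18 and 0.23, and Alox15b in cortex stands highest at 1.40.

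Without scan group in the fit, 5 list genes passed, which are named after their values were seen. In cortex, where that fit counts the averaged array of animal 17, these were Alox15b and Mgll (1.40 and -0.37, adjusted p of 0.0046 and 0.0171). With scan group the adjusted p of Mgll there was 0.234. In medulla the fit without scan group passed Pla2g2d, Faah and Pla2g7 (0.44, 0.30 and -1.15, adjusted p of 0.0276, 0.0372 and 0.0395). In that fit 6.56% of all tested clusters passed in medulla. Among 12 lists of cell type markers, some that passed with scan group were named or counted above without their values, or not mentioned. These were all in medulla. Slc4a9 of intercalated cells was higher by 1.99 (adjusted p = 0.0156) and Cd3e of T cells by 0.68 (adjusted p = 0.0411). Podxl of podocytes and endothelium fell by 1.01 (adjusted p = 0.0344) and Emcn of endothelium fell by 0.91 (adjusted p = 0.0462).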

How the data were processed

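Gene expression was measured on 24 Affymetrix rat arrays, 6 each of medulla and cortex from lithium-treated and control rats, grouped by the labels. The deposited values are log2 signal intensities for 28894 transcript clusters. The authors made them in Partek by RMA with quantile normalization and median polish, removed scan date by an analysis of variance with treatment and scan date, and averaged exon probe sets; rn4 is named in the processing notes. Removing a batch in this way leaves smaller errors in any fit that ignores it.

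No source used here gives the scan dates. Scan groups were therefore recovered as the smallest sets of arrays whose residuals from the diet means sum to 0 (within 1e-06), which gave 4 groups in cortex, 1 of them the single array of lithium-treated animal 17, and 3 in medulla. Gene symbols came from the platform annotation: 15097 clusters had 1 symbol, 323 several and 13474 none. Each tissue was fitted with limma 3.58.1 (R 4.3.3; lmFit and eBayes) on diet and scan group, over clusters that reached a log2 signal of 6 on 4 or more of the 12 arrays, with 2-sided tests and Benjamini-Hochberg adjustment over all of them. The tissue difference was the interaction over all 24 arrays. The labels number the animals alike in both tissues, so arrays pair by animal; the 2 arrays of an animal deviated together only in part (r of -0.0867 to 0.438 over 11 animals, 6 of them over 0.1), and the block by animal was an alternative. The p-values measure the spread between animals, and the number of arrays limits the precision.

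All 10 members are named, and from other lists and markers the genes that passed, at most 4 a list, or up to 2 with the largest change where none passed. The members and lists were chosen with earlier results of these data known. Alternatives changed scan group, scaling, filter, threshold, moderation, test and arrays. The fits were tested on simulated data. Figures were drawn with matplotlib 3.10.9.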

Additional observations from a re-analysis of the deposited data

Results flagged for a closer look

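Of the 40 groups of arrays examined for the 10 genes, 3 held an array whose gap to its nearest neighbour was large for the range of the group; chance flags about 1 in 20 groups. In lithium-treated cortex, the array of animal 19 was low for Ptger1, at 5.69 with the next array at 6.03, and high for Ptger4, at 7.3 with the next at 6.84. In control cortex, the array of animal 1 was low for Ptges, at 6.67 with the next at 6.99. None of these 3 genes passed the test in cortex.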

How the results depend on the processing

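The number of prostaglandin genes that passed in cortex was 0, and 2 without scan group, 1 by the methods' t-test at their own threshold, 1 by that test after Benjamini-Hochberg adjustment and 1 by the methods' analysis of variance at their threshold. In medulla it was 1, and 0 without a limit on low signals, 0 at an adjusted p of 0.01, 4 by the t-test at its threshold, 2 by the analysis of variance at its threshold, 0 by it after adjustment and 2 with Slc12a1 and Umod as a covariate. Over all clusters, 79 in cortex became 288 without scan group, 163 and 296 by the t-test, 143 and 14 by the analysis of variance and 30 at an adjusted p of 0.01. In medulla 190 became 1052 without scan group, 651 and 650 by the t-test, 558 and 37 by the analysis of variance, 29 and 655 at an adjusted p of 0.01 and 0.1, and 510 with the covariate. For the tissue difference 11 became 274 without scan group, 7 with centred arrays, 7 with trend and robust moderation and 4 at an adjusted p of 0.01; no prostaglandin gene passed under any of these.

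Leaving out 1 array at a time gave 0 to 1 prostaglandin genes in each tissue. The clusters that passed in cortex were 34 to 42 without lithium-treated animal 21 or 22 or control animal 15, 16, 29 or 30, and 54 to 92 without any other. In medulla they were 1053 without lithium-treated animal 6, 246 without control animal 29 and 50 to 123 without any other. For the tissue difference they were 34 without animal 6, 3 to 6 without animal 15, 16, 18, 19, 21, 22 or 30 and 8 to 11 without any other. Small values took the other sign in this way: Ptges (-0.16 to 0.00), Ptgds (-0.08 to 0.3) and Ptger4 (-0.17 to 0.06) in cortex, Ptgds in medulla (-0.2 to 0.06), and the tissue differences of Ptgds (-0.4 to 0.02) and Ptger3 (-0.53 to 0.22). With the covariate, Ptgds became 0.12 and Ptger3 0.15 in medulla. The cause was not tested.

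With the animal as a replicate block, 3 clusters passed for the tissue difference with scan group and 299 without it, none of them a prostaglandin gene. The difference was -1.53 for Ptgs1 and 0.22 for Ptger3, and the block changed no call of a prostaglandin gene. The deposited values carry no measure of background, so how far signals near or under 6 stand above it is unknown.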
